A study of Mus musculus with 9 samples.

Results

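The respiratory chain genes described here were the nuclear-encoded members of complexes I to V, with cytochrome c and the complex I assembly factors whose names carry the Nduf root. They were chosen by name, from gene identifiers that begin with Nduf, Uqcr, Cox4i, Cox5, Cox6, Cox7, Cox8 or Atp5, or that read Sdha, Sdhb, Sdhc, Sdhd, Cycs or Cyc1, and by a sum of at least 90 raw counts over all libraries. Of 22173 genes in the count tables, 100 met the name rule and 90 also met the count rule. The members fell into 37 complex I subunits, 8 complex I assembly factors, 4 subunits of complex II, 9 of complex III, cytochrome c itself, 13 of complex IV, 17 of complex V and a transcribed pseudogene of an acyl carrier subunit, Ndufab1-ps. No gene of the mitochondrial genome was in the tables, so the subunits encoded there are not analysed here.

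The libraries came from primary neutrophils of wild type mice, derived from bone marrow and held for 2 days in hydrogels of gelatin methacryloyl (GelMA), a light-crosslinked gelatin matrix. The gels had an elastic modulus of 1.5 kPa (low, the control), 2.6 kPa (middle) or 5.7 kPa (high), in medium with 10% fetal bovine serum. Each gel had 3 libraries, numbered 1 to 3, and the labels do not say whether a number marks an animal, a culture or a day, so the p-values here gauge the scatter among 9 libraries and that scatter may be technical. Libraries held 13172879 to 19486546 counts.

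The respiratory chain sits in the inner mitochondrial membrane. Complexes I and II pass electrons from NADH and succinate to ubiquinone, complex III passes them to cytochrome c, complex IV passes them to oxygen, and complex V makes ATP from the proton gradient that complexes I, III and IV build. Neutrophils draw most of their ATP from glycolysis, and their mitochondria are known for keeping the membrane potential and for roles in migration and cell death.

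The replicate 1 libraries stood apart from the others in each gel, in the members and in many other genes. Summed CPM (counts scaled to a common library total, with TMM factors) of 11 neutrophil markers were 3316 to 4623 in replicate 1 and 15280 to 23220 in replicates 2 and 3, and 10 of the 11 fell in replicate 1. Of 10 macrophage markers, 2 rose and 6 fell in replicate 1, with summed CPM of 7105 to 8313 against 5064 to 8546. The 4 precursor markers (4.07 to 21.8 against 52.5 to 161), 4 B cell markers (27.5 to 44.8 against 76.6 to 154) and 2 cycling markers (54.0 to 80.3 against 192 to 304) all fell. Of 4 erythroid markers tested, 2 rose (143 to 275 against 57.1 to 127). The 4 megakaryocyte markers fell (24.9 to 48.7 against 99.9 to 209), and of 3 fibroblast markers tested 0 were called. In the same test 32.9% of all tested genes rose and 32.5% fell. No listed marker was at 0 in all libraries, and some macrophage markers, such as Cd68 (686 to 1163 CPM), were abundant in every library. Gpnmb, 1 of the 2 macrophage markers that rose, read 4560 to 5704 CPM in replicate 1 and 1165 to 3418 in the others. Apoe, 1 of the 6 that fell, read 88.1 to 211 against 525 to 1481 CPM. The macrophage sum thus follows its largest genes and does not stand for the set. In bulk RNA, fewer cells of a type and less RNA per cell cannot be told apart. The main comparisons of gels below are therefore given for all libraries and with replicates 2 and 3 alone.

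Promoter windows of 4 members show what the sequence around the start sites of these genes looks like. The windows were taken from RefSeq on build GRCm38.p6 (the deposited counts were made on GRCm39), reach from 250 bases before to 50 bases after the annotated start, and are written 5′ to 3′ in the direction of the gene. Capitals mark matches, on either strand, to GCGCA, any base and GCGC in a row (the NRF1 motif), CCGGAAG (the ETS motif bound by GABP) or AANATGGCG (the YY1 motif). Ndufaf7, a methyltransferase needed for complex I assembly, is shown first (chr17:78936885-78937184, plus strand). It was the member called between high and low gels with the replicate number in the model. The main fit, without the number, called no member. Also shown are Atp5e, the epsilon subunit of the ATP synthase central stalk (chr2:174464052-174464351, minus strand), and Ndufb11, a membrane arm subunit of complex I (chrX:20617570-20617869, minus strand). They had, in that order, the largest rise and the largest fall among the members called in replicate 1. Sdha, the flavoprotein of succinate dehydrogenase, carried 3 NRF1 matches (chr13:74350191-74350490, minus strand).
Ndufaf7: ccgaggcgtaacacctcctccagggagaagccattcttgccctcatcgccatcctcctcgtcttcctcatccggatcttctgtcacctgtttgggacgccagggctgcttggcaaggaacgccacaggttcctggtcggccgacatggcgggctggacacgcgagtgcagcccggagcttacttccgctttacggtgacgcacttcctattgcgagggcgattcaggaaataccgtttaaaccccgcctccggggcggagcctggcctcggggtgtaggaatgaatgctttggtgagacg
Atp5e: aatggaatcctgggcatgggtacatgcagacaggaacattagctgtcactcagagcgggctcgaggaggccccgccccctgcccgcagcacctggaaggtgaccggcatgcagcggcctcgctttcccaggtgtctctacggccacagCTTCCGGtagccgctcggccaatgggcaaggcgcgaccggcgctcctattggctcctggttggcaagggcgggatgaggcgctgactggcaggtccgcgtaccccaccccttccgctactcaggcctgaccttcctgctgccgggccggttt
Ndufb11: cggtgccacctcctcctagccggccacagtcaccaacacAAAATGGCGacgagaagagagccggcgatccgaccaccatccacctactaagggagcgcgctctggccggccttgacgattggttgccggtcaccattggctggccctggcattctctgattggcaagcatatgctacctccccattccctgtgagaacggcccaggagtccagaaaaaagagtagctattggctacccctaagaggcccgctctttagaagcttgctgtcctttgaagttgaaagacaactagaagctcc
Sdha: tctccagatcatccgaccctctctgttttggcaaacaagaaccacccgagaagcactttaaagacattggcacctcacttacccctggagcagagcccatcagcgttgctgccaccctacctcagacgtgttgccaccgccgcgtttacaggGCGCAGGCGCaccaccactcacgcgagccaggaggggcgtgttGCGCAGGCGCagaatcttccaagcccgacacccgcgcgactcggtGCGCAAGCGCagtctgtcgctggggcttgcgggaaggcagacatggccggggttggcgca

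The Ndufaf7 window held none of these motifs, the Atp5e window held 1 ETS match and the Ndufb11 window held 1 YY1 match. In the table, 74 members had a window, 79 windows in all. The NRF1 letters were in 25.3% of the members' windows, in 9.8% of the windows of all tested genes and in 4.6% of all windows. For ETS the shares were 24.1%, 17.6% and 8.9%, and for YY1 13.9%, 4.9% and 2.4%. The TATA box letters TATAAA were in 8.9%, 7.3% and 13.6%. A match is a description of the letters, and no motif was tied to a difference between libraries.

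The 90 members spanned a wide range of levels, and the ATP synthase and cytochrome c oxidase subunits stood at the top. Levels are compared between genes as CPM per kilobase of the deposited exonic size, averaged over the 9 libraries. Atp5b, the catalytic beta subunit of complex V, led at 251 CPM per kb (196 to 355 over libraries), followed by the complex IV subunits Cox4i1 at 227 (153 to 354), Cox8a at 214 (179 to 232) and Cox6b1 at 208 (150 to 286). The ranges of these 4 genes overlapped, so their order is not resolved. The median member stood at 39.6 CPM per kb, and the median of the 12094 tested genes was 7.07.

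Within complex I the accessory subunits Ndufa3 (113 CPM per kb) and Ndufa7 (91.6) were the highest, and the 7 catalytic core subunits, which hold the flavin and the iron-sulfur clusters, lay between 17.5 and 39.9. The 4 subunits of complex II kept close to each other, from 53.9 for Sdha to 75.8 for Sdhb, the iron-sulfur subunit. In complex III the hinge protein Uqcrh (126) and the ubiquinone-binding Uqcrb (94.5) were highest. The complex I assembly factors were low, with a median of 6.43 and a highest level of 12.5 for Ndufaf8, followed by 8.82 for Ndufaf7. Cycs, the somatic cytochrome c gene, read 3.29 CPM per kb over a deposited exonic size of 3154 bases.

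The tissue isoforms split cleanly by level. Cox6a1, the ubiquitous form of a complex IV subunit, stood at 174 CPM per kb and its heart and muscle form Cox6a2 at 2.31. Cox7a2 was at 72.8 and Cox7b at 51.6, while the muscle form Cox7a1 (52 counts in all), the testis forms Cox7b2 (0), Cox6b2 (24) and Cox8c (1), the lung form Cox4i2 (37) and Cox8b (3) stayed under the limit of 90. The others under the limit were Ndufa4l2 (0), Ndufb4b (46), Ndufb4c (38) and Ndufs6b (24). The members nearest the limit were Ndufab1-ps with 167 counts, the c-ring gene Atp5g2 with 208 and Cox6a2 with 224. All 90 passed the filter on low counts.

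The study set stiffness as its comparison, with the low gel as control. Summed levels of every complex were higher in replicate 1 than in the other numbers in nearly all gels. Complex I summed to 1499, 1293 and 1120 CPM per kb in low replicates 1, 2 and 3, to 1846, 1201 and 1320 in the middle gels, and to 1891, 1362 and 1174 in the high gels. Complex V gave 1385, 1164 and 998 in the low gels, 1700, 1054 and 1192 in the middle gels and 1754, 1293 and 1068 in the high gels. In both complexes the replicate 1 library was the highest of its gel, and the low, middle and high groups overlapped. Among the replicate 1 libraries the low gel was the lowest, further from high replicate 1 than from low replicate 2. Complex III showed the same order in the middle and high gels, but low replicate 1 (519) lay under low replicate 2 (530).

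**Figure D1:**
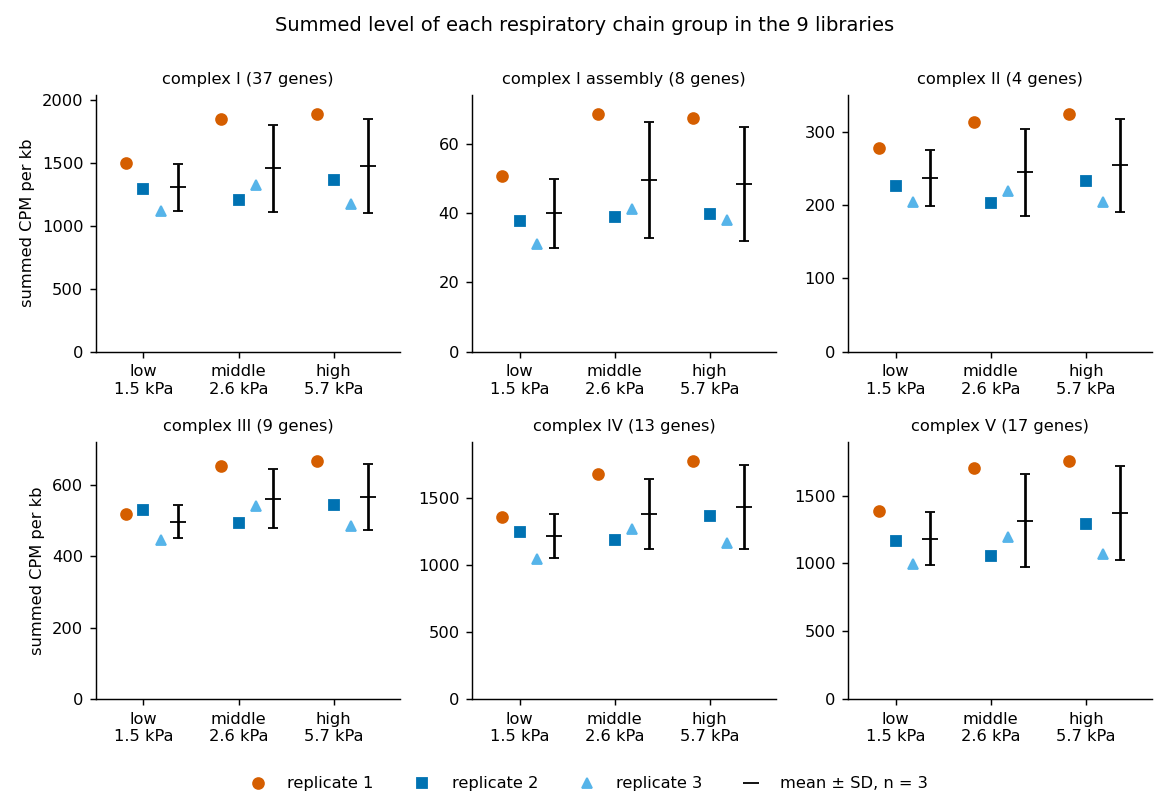
Summed level of each complex (vertical axis, summed CPM per kb) in the low, middle and high gels, with a point for each library by replicate number and the mean ± SD of each gel (n = 3). Replicate 1 is the highest point of its gel in every panel except complex III in the low gel, where it read 519 against 530 in replicate 2.

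Without the replicate number in the model, no member passed in any comparison of gels by edgeR's quasi-likelihood test at an adjusted p of 0.05. For high against low the share of all tested genes called was 0.0910%, and it was 0% for middle against low, high against middle and the test over all 3 gels. Of the members, 1 had an unadjusted p under 0.05 for high against low. The median log2 difference of the members was 0.19 for high minus low, 0.17 for middle minus low and 0.04 for high minus middle. The high minus low median was -0.07 without high replicate 1 and 0.36 without high replicate 3, and the middle minus low median was -0.02 without middle replicate 1.

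Libraries with the same number deviated together from their gel means, and so did numbers 2 and 3 with each other (r 0.552 to 0.698). The deviations set number 1 apart and do not show that numbers 2 and 3 are paired. The number was also fitted as a block. With that block 1 of the 90 members rose in high against low, where 15.5% of all tested genes were called and 6.72% were called higher. That member was Ndufaf7. It read 15.1, 14.8 and 11.4 CPM in low replicates 1, 2 and 3, 30.2, 17.8 and 20.4 CPM in the middle gels, and 24.6, 27.0 and 23.8 CPM in the high gels. All 3 high libraries lay above all 3 low libraries, as in 5.90% of all genes, and so did all 3 middle libraries, as in 3.57%. The raw counts behind these values were 190 to 274 in low, 299 to 408 in middle and 346 to 478 in high libraries.

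The mean of Ndufaf7 was 13.8 ± 2.05 CPM in low, 22.8 ± 6.51 in middle and 25.1 ± 1.70 in high gels (SD, n = 3). With the block, high exceeded low by 0.87 ± 0.16 (log2, SE), with an edgeR adjusted p of 0.00539. Without the block the difference was 0.86 ± 0.22 with an edgeR adjusted p of 0.287. Within the numbers the high minus low difference was 0.69, 0.86 and 1.04 on the log2 scale, so each number gave the same direction. The blocked test over all 3 gels, which called 9.0% of all genes, also called Ndufaf7 alone among the members (edgeR adjusted p = 0.015). For middle against low the blocked difference was 0.70 ± 0.16 with an edgeR adjusted p of 0.0577, where 1.84% of all genes and 0 members were called. For high against middle the block called 0 members and 0.0165% of all genes. DESeq2 without a block called Ndufaf7 alone among the members for high against low (log2 0.87, adjusted p = 0.0164), beside 2.75% of all genes. The blocked call was lost without high replicate 2, at 0.78 with an edgeR adjusted p of 0.0502.

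With replicates 2 and 3 alone, high against low called 26.3% of all tested genes and 3 members, each higher, where 12.2% of all genes were called higher. Ndufaf7 differed by 0.94 ± 0.14 with an edgeR adjusted p of 0.000442. Uqcrfs1, the Rieske iron-sulfur protein of complex III, differed by 0.43 ± 0.14 with an edgeR adjusted p of 0.0377. Cox6a1 differed by 0.27 ± 0.09 with an edgeR adjusted p of 0.0475. Middle against low called 6.42% of all genes and 0 members in those libraries.

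With all libraries and the block, Cox6a1 missed the threshold at 0.30 ± 0.09 (edgeR adjusted p = 0.0519) and Uqcrfs1 at 0.36 ± 0.11 (edgeR adjusted p = 0.0528). Cox6a1 read 85.1, 84.7 and 75.1 CPM in low replicates 1, 2 and 3, 116, 86.4 and 94.0 in the middle gels, and 109, 103 and 89.5 in the high gels. Its low libraries lay under all the others, by a narrow margin in middle replicate 2. Uqcrfs1 read 62.2, 37.6 and 29.0 CPM in the low gels, 77.0, 39.8 and 45.4 in the middle gels and 72.5, 49.97 and 39.7 in the high gels. Its low and high gels overlapped because replicate 1 was the highest of each gel, while each number taken alone put high above low. Its middle and high gels overlapped in replicates 2 and 3 as well. Other members with blocked high minus low differences near the threshold were Cox4i1 (0.26, edgeR adjusted p = 0.0657) and the accessory subunit Ndufb4 (0.69, edgeR adjusted p = 0.0681).

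Most members leaned towards the stiffer gel without passing the test. The blocked high minus low difference was positive for 77 of 90 members, with a median of 0.17, where all genes had 6006 of 12094 positive and a median of 0.00. By complex the blocked median was 0.24 for complex IV, 0.20 for complex V, 0.17 for complex I, 0.16 for complex III, 0.11 for complex II and 0.06 for the assembly factors. The lean was not particular to the members. It was positive in 72 of 82 cytosolic ribosomal protein genes (median 0.14), 12 of 13 membrane carriers (0.19) and 14 of 17 citric acid cycle genes (0.12). It was positive in 56 of 76 mitochondrial ribosomal protein genes (0.09), but in 3 of 10 complex I assembly genes outside the Nduf names (-0.14). The lean was uneven across numbers: the members' median high minus low difference was 0.35 in number 1, 0.10 in number 2 and 0.10 in number 3. For middle minus low it was 0.30, -0.11 and 0.22, so number 2 went the other way. With replicates 2 and 3 alone the lean was smaller: 59 of 90 members were positive for high minus low, with a median of 0.09. In 3 of the 90 members, Ndufaf7, Cox6a1 and the complex V delta subunit Atp5d, all 3 high libraries lay above all 3 low libraries, as in 5.90% of all tested genes.

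**Figure D2:**
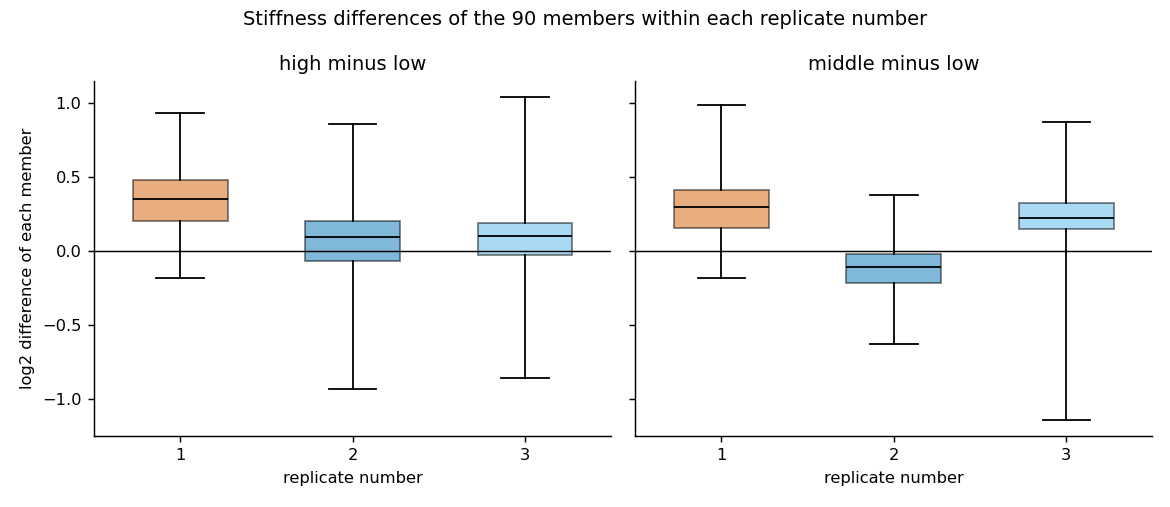
Log2 difference of each of the 90 members between gels (vertical axis) within replicate numbers 1, 2 and 3, for high minus low and for middle minus low. Boxes span the quartiles with the median as a line, and whiskers reach the lowest and highest member: the medians were 0.35, 0.10 and 0.10 for high minus low and 0.30, -0.11 and 0.22 for middle minus low.

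Cell type markers also moved with stiffness. With the block, 3 of 11 neutrophil markers fell and 1 rose in high against low, and 3 of 4 precursor markers fell. Of 10 macrophage markers 2 rose and 4 fell, and both cycling markers fell. In that fit 6.72% of all tested genes were called higher and 8.73% lower. With replicates 2 and 3 alone, 7 of 11 neutrophil markers fell and 1 rose, 4 of 4 precursor markers fell, 2 of 10 macrophage markers rose and 7 fell, and both cycling markers fell, where 12.2% of all tested genes were called higher and 14.0% lower. With the block, 2 of 3 fibroblast and 2 of 5 eosinophil, basophil or mast cell markers tested fell. So did 1 of 4 dendritic cell and 1 of 4 megakaryocyte markers, but no B cell, T or NK cell or erythroid marker. With replicates 2 and 3 alone, 4 of 4 erythroid, 3 of 4 megakaryocyte, 3 of 3 fibroblast and 2 of 4 dendritic markers fell. In those libraries 2 of 4 B cell, 1 of 2 T or NK cell and 2 of 5 eosinophil, basophil or mast cell markers fell. None of these types held a rise. Summed macrophage CPM was 8313 to 8546 in low, 5997 to 7105 in middle and 5064 to 7588 in high libraries. Within that sum Gpnmb read 3352 to 5704 CPM in low and 1165 to 4606 in high libraries. Csf1r read 616 to 1034 CPM in low and 778 to 1711 in high libraries, so the sum does not stand for each marker. The part of these shifts in the Ndufaf7 difference was not tested.

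Far more members were called between replicate numbers than between gels. The comparison of replicate 1 with the others was chosen with earlier results of these data known. It sets 3 libraries against 6, and the labels do not say whether libraries of a number share an animal or culture. If they do, they are not independent replicates, and every p-value between numbers gauges only how alike the gels were. In replicate 1 against the mean of replicates 2 and 3, fitted with the gel as a term, 62 of 90 members rose and 5 fell by edgeR's quasi-likelihood test, where 32.9% of all tested genes rose and 32.5% fell (65.4% in all). The members' median log2 difference was 0.43, against 0.01 for all genes. In 47 members all 3 replicate 1 libraries lay above all 6 others, as in 27.7% of all genes, and in 3 members they lay below, as in 26.5%. As a share of all counts, the members took 0.502%, 0.611% and 0.618% in replicate 1 of the low, middle and high gels, and 0.392% to 0.458% in the other 6 libraries. Replicates 2 and 3 were not separated by the test: 0 members and 0% of all genes were called between them by edgeR, 0 members were called by DESeq2, 2 members had an unadjusted p under 0.05 by edgeR, and the members' median was -0.10 for replicate 3 minus replicate 2.

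**Figure D3:**
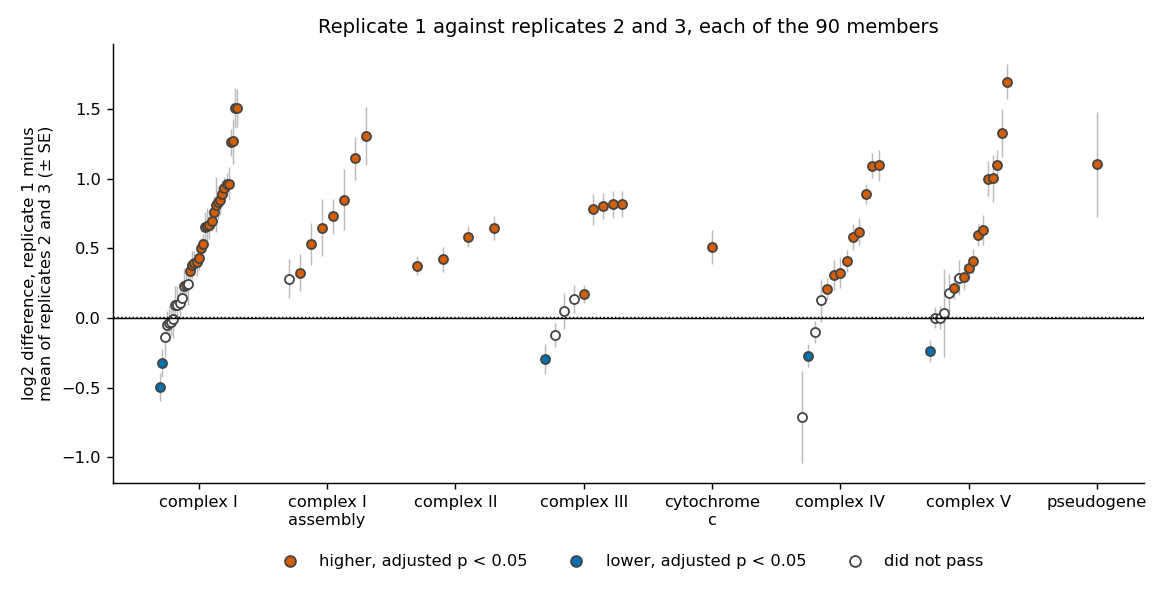
Log2 difference of replicate 1 from the average of the other numbers (vertical axis, with its SE) for each of the 90 members, sorted within each complex, and filled where the edgeR adjusted p was under 0.05. Of the members 62 were higher, led by Atp5e at 1.70, and 5 were lower, led by Ndufb11 at -0.50; the dotted line is the median of all tested genes, 0.01.

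In complex I, 24 of 37 subunits rose in replicate 1 and 2 fell. The accessory subunit Ndufc1 read 17.1 CPM in low replicate 1 against 8.61 and 6.99 in low replicates 2 and 3. It read 22.8 against 6.49 and 6.69 in the middle gels and 23.6 against 7.74 and 8.02 in the high gels. The 3 replicate 1 libraries lay well clear of the rest, and the difference was 1.51 ± 0.14 (log2, SE, edgeR adjusted p = 2.36e-06). Ndufa2, an accessory subunit of the peripheral arm, gave the same difference, 1.51 ± 0.14 (edgeR adjusted p = 7.42e-06). Among the 7 core subunits 5 rose, among them Ndufs1 at 0.53, Ndufv1 at 0.94 and Ndufs3 at 0.96, and those not called were Ndufs8 at 0.14 and Ndufv2 at 0.23. The most abundant subunit did not follow: Ndufa3 differed by -0.05 ± 0.10 (edgeR adjusted p = 0.681).

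Ndufb11 went the other way. It read 17.0, 20.4 and 21.7 CPM in replicate 1 of the low, middle and high gels, and 25.9 to 29.7 CPM in the other 6 libraries. The 2 sets did not overlap, and the difference was -0.50 ± 0.10 (edgeR adjusted p = 0.00118). Ndufb11 shares 12.9% of its exonic bases with Rbm10 on the opposite strand, and it is not given whether the counting used strand. Ndufb10, another membrane arm subunit, fell by 0.32 on the log2 scale (edgeR adjusted p = 0.0143), and its call was lost without low replicate 1 and without middle replicate 1, the highest adjusted p over all settings being 0.104.

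Of the 8 assembly factors 7 rose in replicate 1, and the exception was Ndufaf7 (0.28 ± 0.14, edgeR adjusted p = 0.0925), which was called without high replicate 1 (0.45, edgeR adjusted p = 0.0217). Ndufaf6 had the largest difference, 1.31 ± 0.21 (edgeR adjusted p = 0.000185), at a low level of 3.92 to 4.62 CPM in replicate 1 and 1.36 to 2.47 in the others. Ndufaf8 differed by 1.15 ± 0.16 (edgeR adjusted p = 5.4e-05). Calls of the weaker factors depended on which libraries were included. Ndufaf3 (0.33) kept its call in 1 of 9 fits that each left out a library, the one without middle replicate 3, with a highest adjusted p of 0.127. The calls of Ndufaf4 (0.53) and Ndufaf5 (0.65) were lost without middle replicate 1, and those of Ndufaf5 and Ndufaf2 (0.85) without high replicate 1.

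All 4 subunits of complex II rose by similar amounts. The differences were 0.38 ± 0.07 for Sdha, 0.42 ± 0.09 for Sdhb, and 0.58 ± 0.08 and 0.65 ± 0.08 for the membrane anchors Sdhc and Sdhd. Sdhd read 88.8, 104 and 112 CPM in replicate 1 of the low, middle and high gels and 56.7 to 74.8 CPM in the other 6 libraries, with no overlap. The 4 calls had edgeR adjusted p from 3.89e-05 to 0.00131, and each held without any single library.

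Complex III divided. Uqcrfs1 (0.82), Uqcrq (0.82), the cytochrome c1 gene Cyc1 (0.81) and Uqcr10 (0.78) rose together with edgeR adjusted p of 8.44e-05 or less. The large core proteins behaved differently, since Uqcrc1 differed by 0.17 ± 0.06 (edgeR adjusted p = 0.0336, called in 2 of 9 fits that each left out a library, those without low replicate 1 or 2) and Uqcrc2 by -0.12 ± 0.09 (edgeR adjusted p = 0.223). Uqcrb fell by 0.30 on the log2 scale (edgeR adjusted p = 0.0285) and kept its call in 4 of those 9 fits, losing it without any of the low libraries, middle replicate 2 or high replicate 3 (highest adjusted p 0.246). Its values were 34.9, 51.8 and 48.9 CPM in replicate 1 and 50.2 to 58.2 CPM in the others, so the sets overlapped and low replicate 1 lay lowest. Cycs rose by 0.51 ± 0.12 (edgeR adjusted p = 0.00301), from 8.27 to 9.76 CPM in replicates 2 and 3 to 11.5 to 14.4 in replicate 1.

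In complex IV, 9 of 13 subunits rose and 1 fell. Cox7a2 read 69.1, 91.9 and 94.8 CPM in replicate 1 and 32.2 to 47.3 in the other libraries, a difference of 1.10 ± 0.11 (edgeR adjusted p = 6.81e-06). Cox5a (1.10) and Cox4i1 (0.89) rose as clearly, with edgeR adjusted p of 1.18e-06 and 1.13e-06. Ndufa4, named for complex I but a subunit of complex IV, rose by 0.58 ± 0.09 (edgeR adjusted p = 0.000201). Cox8a, among the highest members by level, differed by -0.10 ± 0.08 (edgeR adjusted p = 0.273) and was called lower without high replicate 1 (-0.20, edgeR adjusted p = 0.0389).

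Cox7a2l, which joins complexes III and IV into supercomplexes, fell by 0.27 on the log2 scale (SE 0.08, edgeR adjusted p = 0.013). It read 73.0, 76.8 and 70.6 CPM in replicate 1 against 76.0 to 97.0 in the others, a slight overlap, and its call was lost without middle replicate 1 and without high replicate 1 (highest adjusted p 0.0697). Cox7a2 and Cox7a2l thus went in opposite directions. The calls of Cox6a1 (0.21), Cox6b1 (0.33) and Cox7b (0.31) were weak: they held in 4, 3 and 4 of 9 fits that each left out a library. All 3 were lost without middle replicate 1 and without high replicate 1, and the highest adjusted p over all settings was 0.24, 0.18 and 0.294. Cox6a2 differed by -0.71 ± 0.33 (edgeR adjusted p = 0.0764) at 0.829 to 2.71 CPM.

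Complex V held both the strongest rise and a fall, both in the central stalk. Atp5e read 57.8 CPM in low replicate 1 against 21.0 and 16.9 in low replicates 2 and 3. It read 74.3 against 17.2 and 22.95 in the middle gels and 71.8 against 28.2 and 19.6 in the high gels. The lowest replicate 1 library was above the highest of the others, and the difference was 1.70 ± 0.13 (edgeR adjusted p = 1.25e-06). Atp5c1, the gamma subunit that turns inside the F1 head, read 111, 116 and 128 CPM in replicate 1 and 128 to 149 CPM in the other libraries, which were all higher. Its difference was -0.24 ± 0.08 (edgeR adjusted p = 0.0169), and its call was lost without low replicate 1, middle replicate 1 or middle replicate 3 (highest adjusted p 0.0911).

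**Figure D4:**
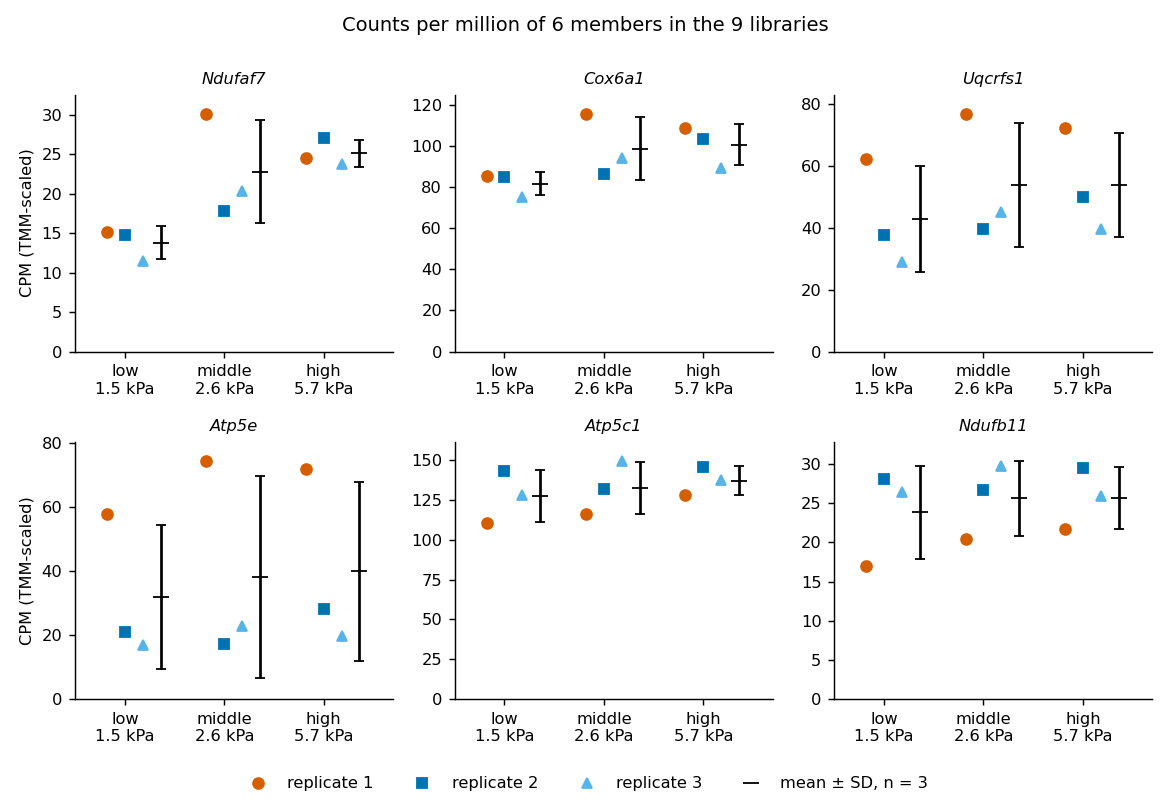
CPM (vertical axis, TMM-scaled, from 0) of Ndufaf7, Cox6a1, Uqcrfs1, Atp5e, Atp5c1 and Ndufb11 in the 9 libraries by gel and replicate number, with the mean ± SD of each gel (n = 3). Ndufaf7 is lowest in the 3 low libraries (11.4 to 15.1 CPM), Atp5e is highest in the 3 replicate 1 libraries (57.8 to 74.3 CPM), and Atp5c1 and Ndufb11 are lowest there.

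The other F1 subunits differed in degree. Atp5b rose by 0.60 ± 0.08 (edgeR adjusted p = 4.44e-05), from 368 to 462 CPM in replicates 2 and 3 to 538 to 667 in replicate 1. Atp5a1, the alpha subunit, differed by 0.22 ± 0.08 (edgeR adjusted p = 0.0373), called in 3 of 9 fits that each left out a library and lost, among others, without middle replicate 1 and without high replicate 1 (highest adjusted p 0.18). Atp5d differed by 0.00 ± 0.07 (edgeR adjusted p = 0.982).

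Of the 12 membrane and stalk subunits 8 rose and 0 fell. The 3 genes for the c-ring, which encode the same mature peptide, split: Atp5g1 rose by 1.33 ± 0.18 (edgeR adjusted p = 4.35e-05), Atp5g3, the most abundant of them, differed by 0.29 ± 0.13 (edgeR adjusted p = 0.0651) and Atp5g2 by 0.03 ± 0.32. Atp5g3 was called when low replicate 1, low replicate 2 or middle replicate 3 was left out, with 0.47 as the largest of these differences. Atp5pb, the peripheral stalk subunit b, differed by 0.00 ± 0.08 (edgeR adjusted p = 0.986).

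Atpif1, the inhibitor of ATP synthase, lies outside the name rule and went against most of complex V. It read 23.1, 29.7 and 33.8 CPM in replicate 1 and 45.6 to 54.6 CPM in the others, with no overlap. The difference was -0.81 ± 0.12 (edgeR adjusted p = 8.47e-05), and its blocked high minus low difference was 0.06 ± 0.13 (edgeR adjusted p = 0.796).

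The rise in replicate 1 was seen in each gel but not to the same extent. The median of the members in that contrast was 0.29 in low, 0.51 in middle and 0.58 in high gels. The Atp5e difference was 1.61, 1.89 and 1.61, while that of Ndufb11 was -0.67, -0.46 and -0.35. Whether the replicate difference depended on the gel was not tested. Of the 62 rises, 49 held in every alternative that tested them and without each library in turn. Among the 49, Ndufaf6 and Ndufb4 were not tested under the filter at a mean of 5 CPM. Of the 5 falls only that of Ndufb11 held throughout. Between 50 and 64 members rose and between 2 and 5 fell over the alternatives.

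The size and composition of the transcripts showed little relation to the replicate 1 difference within the members. Spearman's rho across the 90 members was -0.07 with exonic size and, across 88 of them, -0.06 with transcript GC. Genes share libraries and are not independent replicates, so these are descriptions. Across all 12094 genes rho with exonic size was -0.28, and the 573 genes of at most 1000 bases had a median of 0.46 against -0.01 for longer ones. The 48 members of at most 1000 bases had a median of 0.50 and the 42 longer members 0.43.

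Many members have processed pseudogenes. In the GENCODE M21 transcripts 22 members had a pseudogene copy of at least 95% identity over at least 150 bases, and their median replicate 1 difference was 0.30, against 0.53 for 66 members with no such copy. Ndufb1 and Ndufab1-ps had no transcript under their names there and were not searched. Of the 5 members that fell, 4 had such a copy (Ndufb11, Uqcrb, Cox7a2l and Atp5c1, a trait noticed after their values were seen). How reads were divided between a gene and its copies is not given, so the values of these 22 members, and of Ndufab1-ps beside its parent Ndufab1, are uncertain to that extent. In that annotation 13 members share at least 10% of their exonic bases with another gene. On the same strand they include Ndufb9 (28.6%, with Gm49356) and Atp5o (25.5%, with Donson). On the opposite strand they include Ndufa2 (11.5%, with Tmco6) and Cox5a (41.7% of 645 bases, with Gm26631). The deposited exonic size of Cox5a is 3153 bases, so that share need not hold for its counts. Ndufaf7, Atp5e, Uqcrfs1 and Cox6a1 share none.

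Promoter motifs differed little between members that rose in replicate 1 and the others for NRF1, with 25.5% of 51 windows against 25.0% of 28. The ETS letters were in 27.5% against 17.9%, and the YY1 letters in 19.6% against 3.6%, which is 10 windows against 1. The window with YY1 letters outside the risers was that of Ndufb11. These shares are counts of letters and were not tested.

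Genes that build the complexes rose in replicate 1 to differing extents, and their counts stand beside the 32.9% of all tested genes that rose. Of 22 complex IV assembly factors 18 rose and 0 fell, among them the copper chaperone Cox17 (0.76 ± 0.08, edgeR adjusted p = 5.91e-06). For complex I factors outside the Nduf names 6 of 10 rose, for complex II 2 of 4 and for complex V 3 of 4, with 0 falls. For complex III 2 of 6 rose, the share seen in all genes, with a median of 0.07. Mitochondrial ribosomal proteins (52 of 76 rose, 1 fell, median 0.54) and import and folding factors (18 of 22 rose, 0 fell, median 0.74) mostly rose as well, and so did cytosolic ribosomal proteins (70 of 82 rose, 4 fell, median 0.67). Hspa9, the matrix chaperone, rose by 1.03 ± 0.07 (edgeR adjusted p = 2.88e-07).

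Genes that feed or drain the chain were mixed. Of 17 pyruvate dehydrogenase and citric acid cycle genes 7 rose and 3 fell, with a median of 0.12. Of 17 genes for other electron donors and ubiquinone synthesis 9 rose and 2 fell, and of 13 membrane carriers 6 rose and 5 fell. Gpd2, the mitochondrial glycerol phosphate dehydrogenase, fell by 0.91 on the log2 scale (edgeR adjusted p = 2.33e-06) and the uncoupling protein Ucp2 by 1.17 (edgeR adjusted p = 2.15e-07). Ucp2 read 148, 179 and 199 CPM in replicate 1 and 339 to 432 CPM in the others. Of 17 regulators of mitochondrial gene expression 9 rose and 2 fell: the mitochondrial DNA helicase Twnk rose by 1.31 (edgeR adjusted p = 5.96e-07) and the coactivator Ppargc1b fell by 2.10 (edgeR adjusted p = 7.94e-05). The neutrophil, precursor, B cell and cycling marker sums given above moved with the same replicate 1 libraries, and their part in these differences was not tested.

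Between gels the 290 tested genes of these lists gave 0 calls for high against low without the block. With the block 17 rose and 0 fell, where 6.72% of all tested genes were called higher and 8.73% lower. Complex IV assembly had 2 rises, Higd1a (0.55 ± 0.13, edgeR adjusted p = 0.0182) and Cox17 (0.33 ± 0.09, edgeR adjusted p = 0.0331). Gpd2 differed by 0.51 ± 0.09 (edgeR adjusted p = 0.00406), with 50.8, 83.8 and 95.1 CPM in the low gels and 65.5, 136 and 130 CPM in the high gels. Ucp2 (0.31, edgeR adjusted p = 0.0259) and the aspartate-glutamate carrier Slc25a12 (0.43, edgeR adjusted p = 0.0124) were called among the carriers, and Dlst, a subunit of the oxoglutarate dehydrogenase complex, in the citric acid cycle (0.29, edgeR adjusted p = 0.0241). Mitochondrial ribosomal proteins had 5 calls of 76, import and folding factors 2 of 22 and cytosolic ribosomal proteins 4 of 82, shares near that of all genes. With the block Gpd2 and Ucp2 were higher in the high gels while they were lower in replicate 1, whereas Higd1a and Cox17 were higher in both.

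For middle against low the block called 2 genes of these lists, both higher, where 0.810% of all genes were called higher. The outer membrane import subunit Tomm6 differed by 0.41 ± 0.09 (edgeR adjusted p = 0.0454), and it was also called for high against low. The cytosolic ribosomal protein Rpl21 differed by 0.55 ± 0.12 (edgeR adjusted p = 0.0438), with 36.5, 45.7 and 42.4 CPM in the low, 47.3, 73.0 and 63.2 in the middle and 47.0, 55.9 and 38.9 in the high gels. Its middle libraries lay above its low libraries, while its high and low libraries overlapped. With replicates 2 and 3 alone, high against low gave 18 rises and 5 falls in the 290 genes of these lists. In that fit 12.2% of all tested genes were called higher and 14.0% lower. The falls were 2 complex I assembly genes outside the Nduf names and 1 gene each of complex IV assembly, the citric acid cycle list and the mitochondrial ribosomal proteins.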

How the data were processed

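Poly(A) RNA of 9 libraries, 3 per gel, was sequenced with a stranded kit, per the labels' protocols. The authors deposited, for each library, raw read counts per gene, FPKM values and an exonic size per gene. The submitters' processing notes name cutadapt 1.9.1, HISAT2 2.0.1, HTSeq 0.6.1, DESeq2 and build GRCm39. The other deposited values, gene sizes in bases, were used to express CPM per kilobase, and the deposited FPKM values were checked to equal counts scaled to exonic size and library total, within 0.0050. The sources used here do not give the strand setting of HTSeq.

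Counts were tested with edgeR 4.0.16 in R 4.3.3 (TMM scaling, filterByExpr, robust quasi-likelihood test, Benjamini-Hochberg adjustment over the 12094 genes tested, threshold 0.05). The fit without a block was the main fit for gels. Same-numbered libraries had correlated deviations from the gel means (r 0.595 to 0.856 over 9 pairs, against -0.777 to -0.65 for number 1 with 2 or 3), so the number was also a block. It lowered the biological coefficient of variation from 0.337 to 0.115. Numbers 2 and 3 also correlated with each other (0.552 to 0.698), so the correlations set number 1 apart and do not show pairing by number within 2 and 3. Replicate 1 against 2 and 3 was fitted with gel as a term. Alternatives were DESeq2 1.42.0, RLE size factors, library totals, other filters, and leaving out each library. The scripts were tested on simulated data. Pseudogene copies were found with BLAST 2.17.0.

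Members with values in the text are those called between gels, the 2 most abundant and the largest rise and fall of each complex, isoform pairs, and others named after their values were seen. The members and lists were chosen with earlier results of these data known.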

Additional observations from a re-analysis of the deposited data

How the results depend on the processing

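Calls of members between gels changed with the replicate block, with DESeq2 and with the choice of libraries. For high against low the count of members called was 0 without a block, 1 with the replicate block, 1 with the block and library totals, 3 with the block and RLE size factors, 3 with replicates 2 and 3 alone, and 1 with DESeq2 without a block. For the test over all 3 gels it was 1 with the block, with the block and RLE size factors, with the block and library totals, and with replicates 2 and 3 alone. For middle against low it was 1 with the block and library totals. The block changed no other count of calls for gels. Leaving out each library under the block gave 0 to 5 members for high against low (0 without high replicate 2, 5 without low replicate 2 or middle replicate 2), 0 to 1 for middle against low and 0 to 3 for the test over all gels; these fits and the one with library totals were chosen after seeing the data. For high against low, 0.0910% of all tested genes were called without a block and 15.5% with it. The shares were 26.3% with replicates 2 and 3 alone and 2.75% with DESeq2. No such share is given for the block with RLE size factors, with library totals or without a library. The member counts of those fits are therefore descriptions only. Without the block, leaving out each library moved the members' median from -0.066 to 0.359 for high minus low and from -0.183 to 0.279 for high minus middle. Both medians thus changed sign without high replicate 1, and the high minus middle median also did without middle replicate 2 (-0.061) or 3 (-0.035). No called difference of a member changed sign, though differences that were not called did in some members: over members and settings, 86 replicate 1 calls were lost and 9 gained of 1344. Low counts per library limit Atp5g2 (15 to 34), Cox6a2 (11 to 45) and Ndufab1-ps (7 to 32). Ndufab1-ps is among the called rises in replicate 1 (1.11, edgeR adjusted p = 0.0227). It kept that call in 4 of 9 fits that each left out a library. The cause of these shifts was not tested.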
